A study of Homo sapiens with 4 samples.

Results

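The COPII coat is the protein shell that packs newly made secretory and membrane proteins into vesicles at the endoplasmic reticulum (ER), and the 10 genes described here are human subunits of it, with SEC31B left out, together with the SAR1 GTPases that start its assembly. They were chosen by name as the rows SAR1A, SAR1B, SEC23A, SEC23B, SEC24A, SEC24B, SEC24C, SEC24D, SEC13 and SEC31A of a table of 56271 genes. All 10 were found, and all 10 were among the 12205 genes with enough reads to be tested. They were measured in SKBR3, a HER2-positive line of human breast cancer cells, as raw read counts per gene from poly-A-enriched RNA sequencing of 4 libraries. In the 2 eGFP control libraries the cells expressed eGFP alone, and in the 2 VIRMA-overexpressing libraries they expressed HA-tagged full-length VIRMA together with eGFP. VIRMA belongs to the methyltransferase complex that places N6-methyladenosine (m6A) on RNA. Both transgenes sat in a lentiviral vector driven by the human ubiquitin C promoter, and eGFP-positive cells were sorted and expanded, so each group was a sorted population and not a single clone. The labels describe low-oxygen culture for all 4 libraries whereas the study treats its RNA sequencing as ordinary culture, so the oxygen level is uncertain and was taken as equal in the groups.

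SAR1 is a small GTPase that, once loaded with GTP by the ER membrane exchange factor PREB, inserts into the ER membrane and recruits the SEC23-SEC24 dimer, the inner coat. SEC23 activates GTP hydrolysis by SAR1 and SEC24 holds the binding sites that select cargo, whereas SEC13 and SEC31 assemble the outer cage around the bud. In vertebrates SAR1, SEC23 and SEC24 exist as paralogs that can stand in for one another in part, and mutations of SAR1B, SEC23A, SEC23B and SEC24D each cause a distinct inherited disease.

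The 4 libraries held between 81446932 and 86375474 counts, and the members between 816 and 16799 counts each, so that counting error alone was 0.772% to 3.50% of a value. Replicates of a group differed by at most 7.17% for any member. The targeted gene, listed as KIAA1429, was counted 710 and 682 times in the control libraries and 3437 and 3460 times in the libraries with VIRMA. Mitochondrial genes took 11.4% and 11.6% of counts in the controls and 12.8% in each VIRMA-overexpressing library. The 6 markers of SKBR3 epithelium summed to 26516 and 26077 CPM (counts scaled to library size) in the controls and to 23580 and 23752 with VIRMA. Fibroblast markers summed to 13.7 and 13.5 CPM against 8.42 and 9.01, and erythroid markers to 28.0 and 20.3 against 0.48 and 0.33. Leukocyte markers summed to 3.25 and 2.12 CPM against 1.57 and 1.73, and endothelial markers to 7.67 and 6.50 against 8.10 and 9.05. The mitochondrial share and each of these marker sums separated the groups, and their part in the members' results was not tested. Since each library is a bulk sample, a change in how many cells express a gene and a change in RNA per cell cannot be told apart.

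Transcripts of 8 of the 10 members rose in VIRMA-overexpressing cells and none fell (edgeR quasi-likelihood test, adjusted p below 0.05 over all 12205 genes). The count of members that fell was 0 at an unadjusted p below 0.05 too, and with DESeq2 and limma-voom. Over all 12205 genes, 4476, 4167 and 4378 fell in the same order. The count that rose varied more. It was 7 with DESeq2 and with each other filter on low counts, and 8 with limma-voom. With upper-quartile factors or library totals as the scaling it was 9. The background of the main fit was wide, since 35.1% of all tested genes rose and 35.9% fell. The rises were modest: none of the 10 passed 2-fold, a size that 4.52% of tested genes passed upward and 2.93% downward. The median log2 fold change of the members was 0.28, against 0.01 over all tested genes. The largest changes were in SEC24D, SEC31A, SEC24A and SEC23A, between 1.46-fold and 1.67-fold, whereas SEC24B and SEC13 did not pass the test.

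**Figure D1:**
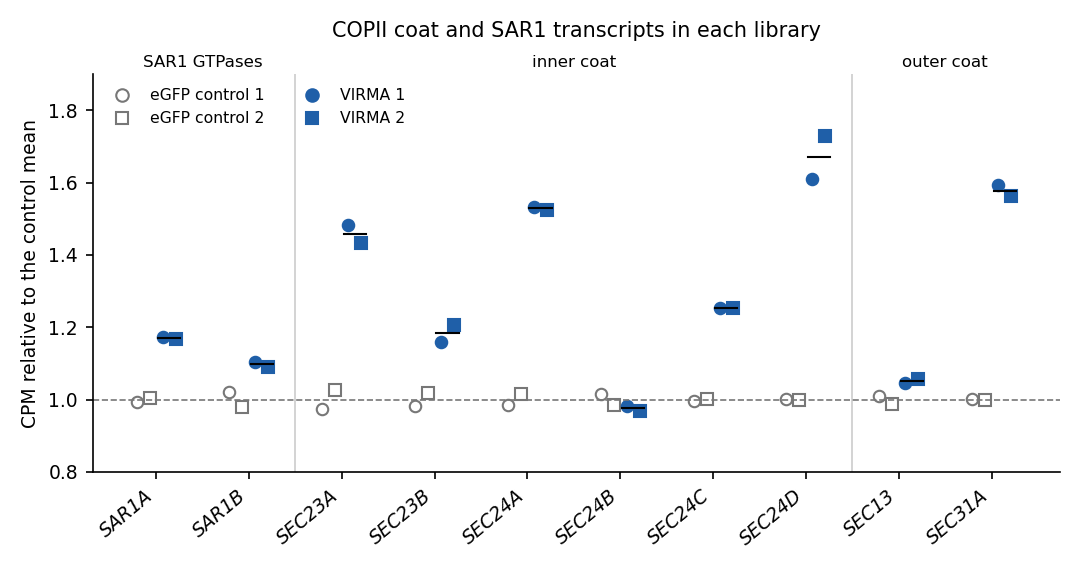
CPM of each member in each of the 4 libraries, divided by the mean of the 2 control libraries (vertical axis, starting at 0.8), with genes grouped as SAR1 GTPases, inner coat and outer coat. Open symbols are controls, filled symbols VIRMA-overexpressing libraries and short bars their mean; filled symbols of SEC23A, SEC24A, SEC24D and SEC31A stand far above the open ones, while those of SEC24B and SEC13 lie close to them.

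Both SAR1 GTPases were slightly higher. SAR1A (chr10:70147289-70170523, minus strand, GRCh38) was read 11451 and 11654 times in the controls, against 13902 and 13503 times under VIRMA overexpression. After scaling, that was 139.8 ± 1.12 and 163.5 ± 0.586 CPM (mean ± SD, n = 2 in each group). The log2 fold change was 0.23 ± 0.0329 (SE, adjusted p = 1.86e-07 by edgeR). SAR1B (chr5:134601144-134649271, minus strand), the paralog required for export of the large lipoprotein particles of the intestine, had 2586, 2495, 2880 and 2776 counts in the same order. Scaled levels of 30.8 ± 0.915 and 33.7 ± 0.304 CPM gave a log2 fold change of 0.13 ± 0.0563 (SE; adjusted p = 0.0329 by edgeR). This is the weakest call among the members: the adjusted p was 0.0747 with DESeq2, between 0.109 and 0.231 with 3 other filters on low counts, and between 0.0608 and 0.185 when eGFP control 2, VIRMA-overexpressing 1 or VIRMA-overexpressing 2 was left out.

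Levels between genes were compared per length, as RPKM, the reads scaled to both exon length and library size. SAR1A was the dominant form at 20.2 RPKM in controls against 2.80 for SAR1B, so that it made up 87.5% and 88.1% of the SAR1 sum in control cells and 88.4% and 88.5% with VIRMA. The ratio of the 2 paralogs moved by 0.09 on the log2 scale, and the approximate 95% interval of that difference in change, -0.04 to 0.22, included no difference.

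Within the inner coat, the 2 SEC23 paralogs both rose but by unequal amounts. SEC23A (chr14:39031919-39109646, minus strand) gave 1772 and 1882 counts without and 2782 and 2623 counts with VIRMA overexpression, which is 22.1 ± 0.844 and 32.2 ± 0.793 CPM. Its change on the log2 scale was 0.54 ± 0.0616 (SE; adjusted p = 9.29e-10 by edgeR). SEC23B (chr20:18507493-18561415, plus strand), the paralog whose loss causes a dyserythropoietic anaemia, had 8925, 9305, 10847 and 11027 counts, or 110.3 ± 2.76 and 130.6 ± 3.74 CPM. Its change on the log2 scale was 0.24 ± 0.0359 (SE, adjusted p = 2.42e-07 by edgeR).

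SEC23B was the most abundant of all 10 members per length in both groups, at 27.3 ± 0.684 RPKM in controls and 32.3 ± 0.926 RPKM in VIRMA-overexpressing cells, whereas SEC23A stood at 2.47 ± 0.094 and 3.60 ± 0.089 RPKM. The minor paralog therefore gained share. SEC23A made up 8.23% and 8.37% of the SEC23 sum in control cells and 10.4% and 9.70% with VIRMA. The log2 ratio of SEC23A to SEC23B rose by 0.30 (interval of the difference 0.16 to 0.44).

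The SEC24 family, which reads the export signals of cargo, held both the largest change and a member with no detectable one. SEC24D (chr4:118722823-118838683, minus strand) stood at 4035 and 4043 counts in control cells and at 6677 and 7003 with VIRMA, or 48.9 ± 0.148 and 81.7 ± 4.14 CPM. Its change of 0.74 ± 0.0430 on the log2 scale (SE; adjusted p = 2.44e-17 by edgeR) was higher than that of 90.5% of all tested genes. Both VIRMA-overexpressing libraries lay well above both controls, and they differed more from each other than those of any other member.

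SEC24A (chr5:134648789-134727823, plus strand) was the least abundant member and rose from 816 and 847 counts to 1308 and 1270, that is from 10.1 ± 0.221 to 15.4 ± 0.059 CPM. Its change on the log2 scale was 0.61 ± 0.0860 (SE; adjusted p = 9.45e-08 by edgeR). SEC24C (chr10:73744384-73772161, plus strand), the most abundant SEC24, had 6165, 6237, 7979 and 7791 counts, or 75.1 ± 0.284 and 94.1 ± 0.014 CPM. It rose by a log2 fold change of 0.33 ± 0.0379 (SE; adjusted p = 1.63e-09 by edgeR), a smaller estimate than those of SEC24A and SEC24D. SEC24C shared 42.9% of its exonic bases with a row on the opposite strand, RP11-574K11.32, which held 64 to 163 counts. As the use of strand in counting is not given, the effect of this overlap on the level of SEC24C is not known.

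SEC24B (chr4:109433772-109540896, plus strand) gave 2214 and 2158 counts in control cells and 2204 and 2122 with VIRMA, or 26.5 ± 0.596 and 25.8 ± 0.253 CPM. The estimated change was -0.04 ± 0.0616 on the log2 scale (SE; adjusted p = 0.617 by edgeR) with an interval of -0.16 to 0.09, so a rise of the size seen in SEC24C lay outside it. The direction was not fixed, since it was 0.036 with upper-quartile factors and 0.050 with library totals as the scaling.

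By sequence SEC24A pairs with SEC24B and SEC24C with SEC24D, and the changes did not follow this pairing. Relative to SEC24B, SEC24A rose by 0.65 on the log2 scale (interval 0.44 to 0.86) and SEC24D by 0.77 (interval 0.63 to 0.92). SEC24C lost ground to SEC24D, with the log2 ratio moving by -0.41 (interval -0.53 to -0.30). Each of these ratios separated the 2 groups of libraries without overlap, but an exact two-sided permutation test of 2 against 2 libraries gave p = 0.333, the smallest it can give, for each of the 6 paralog pairs compared (SEC31A with SEC31B included), and 0.333 after Benjamini-Hochberg adjustment. The intervals come from the standard errors of the edgeR fit and treat the errors of the 2 genes as independent.

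The composition of the SEC24 pool shifted accordingly. In controls SEC24D and SEC24B were near equal, at 19.4% and 19.3% of the SEC24 sum for SEC24D and 20.2% and 19.6% for SEC24B. In the VIRMA-overexpressing libraries SEC24D reached 24.3% and 25.7%, while SEC24B stood at 15.2% and 14.8%. SEC24C had the largest share in both groups, 55.2% of the sum in controls and 53.5% in VIRMA-overexpressing cells, and SEC24A moved from 5.49% to 6.49%. These shares rest on exonic length, and with raw counts in place of RPKM SEC24C held 46.8% and 43.4% and the gain of SEC24D was 7.16 percentage points instead of 5.63.

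**Figure D2:**
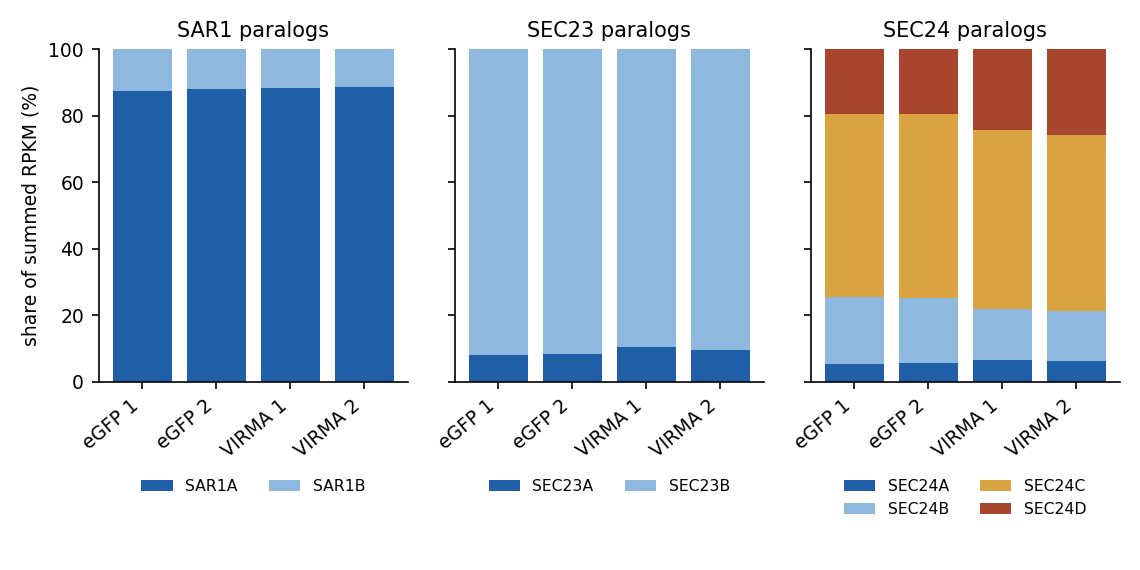
Share of each paralog in the summed RPKM of the SAR1, SEC23 and SEC24 families (vertical axis, percent, from 0 to 100), 1 stacked bar per library. The SAR1 bars look alike in all 4 libraries, the SEC23A segment grows from 8.23% and 8.37% to 10.4% and 9.70%, and the SEC24D segment grows from 19.4% and 19.3% to 24.3% and 25.7% as that of SEC24B narrows.

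The promoters of the members were described by their sequence. The windows run from 250 bases before to 50 after the RefSeq transcription start (GRCh38.p14), and 9 of the 10 members had 1 or more, 14 windows in all, with no entry for SEC24D. They were searched on both strands for 5 motifs bound by bZIP factors of the ER stress response and secretion: ERSE (CCAAT and CCACG with 9 bases of any kind between them), ERSE-II (ATTGG and CCACG with 1 base between them), UPRE (TGACGTGG), CRE (TGACGTCA) and CARE (TGATGNAAT). UPRE and CRE begin with the same letters, and UPRE read on the other strand begins with the CCACG of both ERSE motifs. UPRE was in the windows of SEC23A and SEC24A and is shown in capitals. In SEC23A it begins 4 bases before the start and runs across it, and in SEC24A it begins 179 bases before the start. For contrast, picked with the changes in view, a window each follows of SEC23B (the first of 2, neither of which holds it) and SEC24B, which lacks it.
SEC23A, chr14:39103186-39103485, minus strand: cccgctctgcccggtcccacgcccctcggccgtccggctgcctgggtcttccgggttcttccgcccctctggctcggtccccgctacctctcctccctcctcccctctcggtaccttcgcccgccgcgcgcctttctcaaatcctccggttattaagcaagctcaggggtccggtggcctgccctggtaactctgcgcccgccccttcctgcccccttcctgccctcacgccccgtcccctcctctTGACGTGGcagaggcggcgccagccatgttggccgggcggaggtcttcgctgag
SEC24A, chr5:134648535-134648834, plus strand: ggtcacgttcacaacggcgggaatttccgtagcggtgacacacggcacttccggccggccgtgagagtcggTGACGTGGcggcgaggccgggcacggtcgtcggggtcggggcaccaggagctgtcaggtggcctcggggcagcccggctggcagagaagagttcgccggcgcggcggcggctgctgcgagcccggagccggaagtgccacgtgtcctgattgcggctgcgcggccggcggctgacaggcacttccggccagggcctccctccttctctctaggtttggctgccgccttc
SEC23B, chr20:18507298-18507597, plus strand: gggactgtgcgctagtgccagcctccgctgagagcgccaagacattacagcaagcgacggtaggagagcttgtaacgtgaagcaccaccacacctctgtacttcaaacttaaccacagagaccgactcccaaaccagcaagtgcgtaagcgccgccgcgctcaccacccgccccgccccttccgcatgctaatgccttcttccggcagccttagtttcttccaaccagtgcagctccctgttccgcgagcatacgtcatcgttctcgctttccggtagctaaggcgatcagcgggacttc
SEC24B, chr4:109433565-109433864, plus strand: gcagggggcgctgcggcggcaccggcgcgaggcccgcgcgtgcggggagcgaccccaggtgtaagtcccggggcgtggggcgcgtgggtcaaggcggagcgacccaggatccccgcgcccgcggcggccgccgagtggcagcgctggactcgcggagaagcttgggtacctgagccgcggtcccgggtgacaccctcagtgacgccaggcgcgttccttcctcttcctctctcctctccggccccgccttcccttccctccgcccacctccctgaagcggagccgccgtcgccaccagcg

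UPRE was in 0.729% of all 35116 promoter windows of the reference, CRE in 1.85%, CARE in 0.991%, ERSE in 0.0769% and ERSE-II in 0.0541%. Counted by gene, as the members are here, UPRE was in 0.927% of 27305 genes. The other members that rose and had a window, SAR1A, SAR1B, SEC23B, SEC24C and SEC31A, held none of the 5 motifs. A match describes the letters only, and binding was not analysed here. Whether the motifs have a part in the changes was not tested.

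In the outer coat the 2 partners parted ways. SEC31A (chr4:82818661-82901166, minus strand), the rod that forms the edges of the cage, gave 10251 and 10279 counts in control cells and 16799 and 16068 with VIRMA, or 124.2 ± 0.310 and 196.1 ± 2.83 CPM. After SEC24D this was the largest change of the members, at 0.66 ± 0.0328 on the log2 scale (SE; adjusted p = 3.26e-19 by edgeR). SEC31A shares 482 exonic bases, 5.27% of its length, with THAP9-AS1 on the same strand, a row that itself went from 1945 and 1964 to 3771 and 3540 counts.

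SEC13 (chr3:10293131-10321178, minus strand), the beta-propeller that binds SEC31 and also serves in the nuclear pore and in the nutrient-sensing GATOR2 complex, had 7585, 7467, 8072 and 7969 counts. Its level was 91.1 ± 1.41 CPM in controls and 95.7 ± 0.759 in VIRMA-overexpressing cells, which is a change of 0.07 ± 0.0371 (SE; adjusted p = 0.0832 by edgeR) on the log2 scale. The change did not pass the test with the main scaling. It did pass with upper-quartile factors (log2 fold change 0.14, edgeR adjusted p = 0.000873) and with library totals (0.16, edgeR adjusted p = 0.000387).

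Per length, SEC31A stood below SEC13 in controls, with a ratio of 0.805 and 0.820, and above it in VIRMA-overexpressing cells, with a ratio of 1.24 and 1.20. This order rests on exonic length, since in CPM SEC31A was above SEC13 in controls too (124.2 against 91.1). Their log2 ratio, a pair picked with its values in view, moved by 0.59 (interval 0.49 to 0.68). The SEC31 paralog SEC31B had 429, 472, 876 and 813 counts. It passed the filter on low values only through the VIRMA-overexpressing libraries, so its ratio to SEC31A, 20.7 and 18.9 for SEC31A over SEC31B in controls and 16.6 and 17.2 with VIRMA, is given without an interval.

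**Figure D3:**
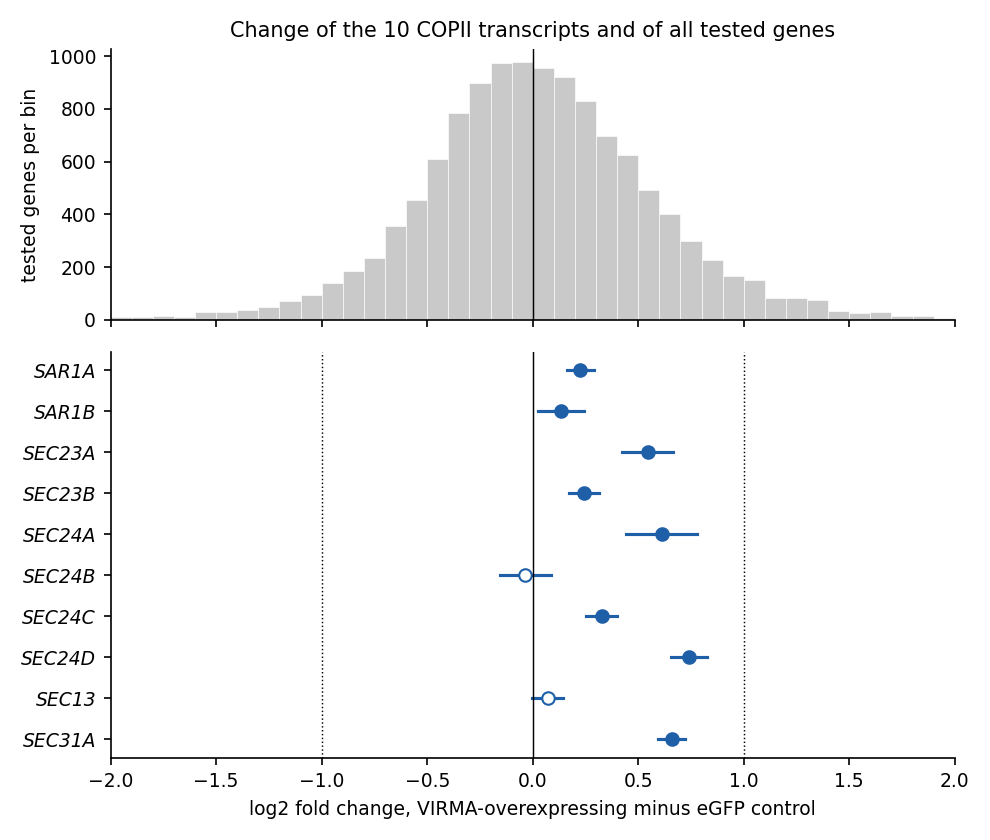
Upper panel, number of tested genes in each bin of log2 fold change, VIRMA-overexpressing minus control, with 28 genes below and 79 above the plotted range; lower panel, the 10 members with the approximate 95% interval of the edgeR fit, filled where the adjusted p was below 0.05, and dotted lines at 2-fold. All filled points lie to the right of 0 and inside the 2-fold lines, from 0.13 for SAR1B to 0.74 for SEC24D.

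Ordered by level per length in controls, the members ran SEC23B (27.3 RPKM), SAR1A (20.2), SEC13 (16.7), SEC24C (14.1), SEC31A (13.6), SEC24B (5.07), SEC24D (4.93), SAR1B (2.80), SEC23A (2.47) and SEC24A (1.40). The closest neighbours were SEC24B, with 5.15 and 4.99 RPKM, and SEC24D, with 4.94 and 4.92, whose ranges were separate by less than the spread of SEC24B. In VIRMA-overexpressing cells SEC31A (21.4 RPKM) passed SEC24C and SEC13, SEC24D (8.23) passed SEC24B (4.95) and SEC23A (3.60) passed SAR1B (3.08). SEC24C and SEC13, both at 17.6 RPKM, overlapped there. These crossings rest on exonic length and are absent in CPM. By CPM, SEC31A (124.2) already stood above SEC13 (91.1) and SEC24C (75.1) in controls, and SEC24D (48.9) above SEC24B (26.5). SEC23A (32.2) stayed below SAR1B (33.7 CPM) in VIRMA-overexpressing cells.

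Summed over the 10 members, the level went from 108.6 ± 0.519 to 134.6 ± 0.917 RPKM, 1.24-fold. The SAR1 sum was 1.16-fold, the SEC23 sum 1.21-fold and the SEC24 sum 1.29-fold that of controls. These sums describe the layers of the coat and were not tested. The ratio of the SEC23 to the SEC24 sum, whose products pair in the inner coat, was 1.15 and 1.19 in controls and 1.08 and 1.10 in VIRMA-overexpressing cells.

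SAR1B and SEC24A lie next to each other on chromosome 5 on opposite strands, and their rows share 385 exonic bases, 3.51% of SAR1B and 5.35% of SEC24A. Their RefSeq starts are 15957 bases apart. The ratio of SEC24A to SAR1B, also picked with its values in view, was 0.480 and 0.517 in controls and 0.691 and 0.696 in VIRMA-overexpressing libraries, a change of 0.48 on the log2 scale (interval 0.28 to 0.68). Whether the counting used strand is not given in the sources used here, so reads from the shared bases could not be assigned to either gene.

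The genes most like SEC24D over the 4 libraries were PCM1, a scaffold of centriolar satellites, GCC2, a golgin of the trans-Golgi, and USP12, a deubiquitinase. Likeness was the Euclidean distance between log2 CPM profiles centred on their own means, which was 0.0197, 0.0257 and 0.0263. Such a profile is common with 4 libraries, as 676 of 12149 genes lay within 0.2 of SEC24D.

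Of 12 listed factors that organise ER exit sites, 9 were tested. Among them 6 (66.7%) rose and 2 (22.2%) fell, beside 35.1% and 35.9% of all tested genes, with a median log2 fold change of 0.23, and 1 of the 6, SEC31B, had to differ to be tested. PREB, the SAR1 exchange factor, rose by 0.23 (edgeR adjusted p = 9.29e-07), as did SEC23IP, a SEC23-binding protein, by 0.23 (0.00124) and TFG, which clusters exit sites, by 0.27 (5.40e-08). SEC16A, the scaffold on which the coat assembles, rose by 0.48 (adjusted p = 1.54e-16) and MIA3 (TANGO1), the receptor for bulky collagen cargo, by 0.66 (1.13e-14). The fitted value of SEC31B was 0.89.

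The 2 factors that fell, PEF1 by 0.46 (edgeR adjusted p = 1.07e-10) and PDCD6 by 0.26 (6.89e-09), encode the calcium-binding partners that, with KLHL12, direct ubiquitination of SEC31. KLHL12 itself changed by 0.11 without passing the test (adjusted p = 0.120). Among the untested, CTAGE5 had 147 and 121 counts in controls and 471 and 422 in VIRMA-overexpressing libraries, SEC16B at most 8 counts and MIA2 none.

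Among the cargo receptors and p24 proteins that COPII vesicles carry, 7 of 20 tested (35.0%) rose and 9 (45.0%) fell, shares not far from the 35.1% and 35.9% of all tested genes, with a median of -0.02, which turned positive with 2 of the scalings (0.053 and 0.068) and without VIRMA-overexpressing 2 (0.0018). The extremes were MCFD2, the soluble partner of the lectin LMAN1, which rose by 0.87 (edgeR adjusted p = 1.74e-17), and CNIH2, a cornichon, which fell by 2.07 (1.24e-23).

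The machinery for the return path, COPI coat and retrieval, had 12 higher (75.0%) and 3 lower (18.8%) among 16 tested, with a median of 0.33, where all tested genes had 35.1% and 35.9%. Its extremes were ARFGAP3, a GTPase activator of ARF1 that rose by 0.92 (edgeR adjusted p = 1.98e-15), and COPG2, which fell by 0.23 (6.64e-05). Of 33 tested SNAREs and tethers, which dock and fuse vesicles between ER and Golgi, 20 rose (60.6%) and 6 fell (18.2%), with a median of 0.20. There BET1, a SNARE carried on COPII vesicles, rose by 0.87 (3.48e-15) and the GTPase RAB1B fell by 0.81 (5.88e-19). GOSR2, which is among the 20 that rose, passed the filter only through the VIRMA-overexpressing libraries, so it had to differ to be tested.

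SEC13 also sits in complexes outside the coat. Of the 9 partners of SEC13 in the Y complex of the nuclear pore, 7 fell (77.8%, against 35.9% of all tested genes) and none rose (against 35.1%), with a median of -0.21 (1 was higher at an unadjusted p below 0.05, AHCTF1, at 0.13 and edgeR adjusted p = 0.0679). NUP85 fell most, by 0.75 (adjusted p = 5.39e-18). Of the 4 GATOR2 partners, MIOS rose most, by 0.42 (2.00e-08), and WDR24 fell most, by 0.23 (0.00303), with 2 of 4 in each direction, beside 35.1% and 35.9% of all tested genes, and a median of -0.03. SEH1L stands in both lists.

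Of 7 tested bZIP factors that act in ER stress and secretion, 6 rose (85.7%, against 35.1% of all tested genes) and none fell (against 35.9%), also at an unadjusted p below 0.05, with a median of 0.21. ATF6, the ER-bound sensor cut free in the Golgi after COPII export, was highest at 0.94 (edgeR adjusted p = 1.34e-17). CREB3 was lowest at -0.11 and did not pass the test (adjusted p = 0.128). Protein levels were not analysed here.

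**Figure D4:**
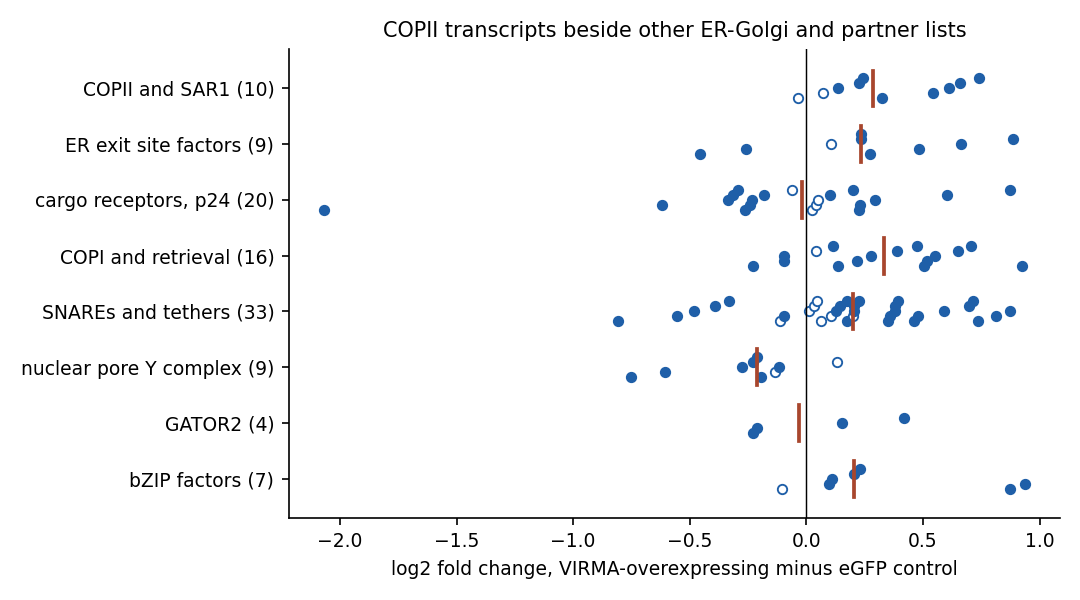
Log2 fold change, VIRMA-overexpressing minus control (horizontal axis), of every tested gene in the COPII list and 7 other lists, 1 point per gene, filled where the edgeR adjusted p was below 0.05, with a vertical bar at each list's median and the number tested in parentheses. COPII points lie between -0.04 and 0.74 with a median of 0.28, next to COPI at 0.33, while the Y complex lies mostly left of 0 with a median of -0.21; points are offset vertically for legibility.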

How the data were processed

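Per the labels and the study's methods, stranded poly-A libraries were trimmed with Trimmomatic 0.39, aligned to hg38 with STAR 2.5.2a and counted per gene with featureCounts (Ensembl annotation), and the deposited values are raw counts made by the authors, not normalized. The use of strand and the handling of multiply aligned reads are not given in the sources used here. The control columns name their group, and the 2 remaining columns were taken as VIRMA-overexpressing. The number of sample columns not used was 0.

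Exonic lengths in the deposited table turned the counts into RPKM, and 12205 genes above 1 RPKM in 2 or more libraries entered the quasi-likelihood fit (edgeR 4.0.16, R 4.3.3, TMM normalization, factors 0.968 to 1.03, group as the only term). P-values were adjusted by Benjamini-Hochberg over all tested genes, and a gene was called at an adjusted p below 0.05. The SE of a log2 fold change came from the same fit, and intervals are normal approximations from it. The libraries are stated to be biological duplicates. The p-values, SEs and intervals rest on the spread between these 2 libraries per group and on no wider replication. For each gene the fit estimates that spread in part from all tested genes, so it is not the gene's own spread alone. The fit was also run on simulated data with known changes in few genes and the same relative spread for all genes. That setting differs from these data, so no conclusion on the calls is drawn from it.

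The members and all gene lists were chosen with earlier results of these data known. All 10 members are named, as are the highest and lowest gene of each list, every tested ER exit site factor and the 3 profiles nearest to the most changed member, and any other gene was named after its values were seen. Alternatives were DESeq2 1.42.0, limma-voom 3.58.1, other scalings and filters, a replicate block and leaving out each library. Promoter sequences are from RefSeq (GRCh38.p14).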

Additional observations from a re-analysis of the deposited data

How the results depend on the processing

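Of the 10 members, 7 kept both direction and call in all 13 alternatives (9 other settings and 4 left-out libraries), the exceptions being SAR1B, SEC24B and SEC13. SAR1B lost its call as given above. With upper-quartile factors or with library totals in place of TMM, SEC24B changed sign (0.036 and 0.050) and SEC13 became called, and the median of all genes moved by 0.0715 and 0.0857. The median of the members, 0.28, was then 0.36 and 0.37. It was 0.24 with filterByExpr, 0.25 with no filter, 0.26 with a minimum of 10 counts per library, and 0.27 to 0.30 when libraries were left out. Under these filters, in the same order, the genes shared with the main fit moved at the median by -0.0436, -0.0343 and -0.0297. The median of the cargo receptors turned to 0.053 and 0.068 under those scalings and ranged from -0.093 to 0.0018 over the left-out libraries, and that of GATOR2 turned to 0.041 and 0.055. The 8 paralog and partner ratios kept their direction in all 48 recomputed values, 32 with a library left out and 16 from other settings. These settings were fewer for ratios than for the members. For every ratio the libraries of the groups did not overlap, so leaving a library out could not reverse its direction. No conclusion on stability is drawn from the 48 values. The replicate numbers did not pair the libraries (correlation of same-numbered deviations 0.0346). With the replicate block 8 members rose and 0 fell, beside 4358 and 4454 of all 12205 tested genes. The median of the members was then 0.28 and no call of a member changed. Depth limited SEC24A most, with the lowest counts and the largest SE of the members. A change of scaling moves every gene by nearly the same amount. Why the scalings differ, and why single values moved when a library was left out, was not tested.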
